A study of Mus musculus with 18 samples.

Results

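The genes described here encode the receptor of leukemia inhibitory factor (LIF), the kinase and transcription factor that carry its signal, and genes that this transcription factor is known to switch on. They are Lifr, Il6st, Jak1, Stat3, Socs3, Socs2, Cish, Bcl3, Pim1 and Pim3. These 10 genes were taken by symbol from the 25897 gene symbols of the deposited table, and all 10 were among the 14128 genes with enough counts to be tested. The cells were E14tg2a, a mouse embryonic stem cell line on a 129SV background. Their Med24 gene, which encodes a subunit of the Mediator complex, had been knocked out, and a FLAG-Med24 cDNA under a tetracycline-responsive promoter replaced it. Cells kept for several passages without doxycycline are called knockout here (labelled KO), and cells kept with 500 nM doxycycline, in which the cDNA is on, are called rescued (labelled WT).

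All groups also carried cRAF-ErT2-T2A-RTTA, a cassette for a RAF kinase that 4-hydroxytamoxifen (4OHT) switches on and for the doxycycline-dependent activator. ERK, the kinase at the end of the RAF pathway, is thereby activated by 4OHT. Cells grew in serum with LIF and 2 µM of the GSK3 inhibitor Chir99021, and were moved 24 h before treatment to serum with LIF and 250 nM of the FGF receptor inhibitor PD173074. Then 250 nM 4OHT was given for 0, 2 or 8 h, where 0 h means none. New RNA was labelled with 5 mM ethynyl uridine for the last 15 min, captured and sequenced, so the counts follow transcription more closely than total RNA does. Each of the 6 groups (knockout at 0, 2 and 8 h and rescued at 0, 2 and 8 h) held 3 libraries, from clones A, B and C. LIF was present in every group, so no comparison removes the signal itself. Doxycycline was given to rescued cells only, so its effects and those of Med24 cannot be told apart.

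LIF binds a receptor made of LIFR and gp130, the product of Il6st. Kinases of the JAK family bound to the receptor then phosphorylate STAT3, which enters the nucleus and activates transcription. In mouse embryonic stem cells this signal sustains the naive pluripotent state, whereas ERK signalling favours exit from it. Some of the genes that STAT proteins activate encode inhibitors of the same pathway, among them Socs3, Socs2 and Cish.

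Promoter sequences from RefSeq (GRCm38.p6) are shown for Jak1 and Pim1, whose 2 h values differed most between knockout and rescued cells, and for Socs3. They run 5′ to 3′ on the gene's strand, cover bases before the transcription start and leave out annotated exons. Capitals mark a match to a cyclic AMP response element (TGACGTCA) in Jak1 and to a STAT motif (TTCNNNGAA) in Socs3. The Jak1 stretch is chr4:101265283-101265473 (minus strand), the Socs3 stretch is chr11:117969452-117969616 (minus strand, within the span of a longer GENCODE transcript of Socs3 but outside its exons) and the Pim1 stretch is chr17:29490535-29490752 (plus strand).
Jak1: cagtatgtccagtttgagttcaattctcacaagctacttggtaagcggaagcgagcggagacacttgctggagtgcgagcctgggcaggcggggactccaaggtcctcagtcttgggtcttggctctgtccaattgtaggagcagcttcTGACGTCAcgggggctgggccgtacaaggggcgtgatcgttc
Socs3: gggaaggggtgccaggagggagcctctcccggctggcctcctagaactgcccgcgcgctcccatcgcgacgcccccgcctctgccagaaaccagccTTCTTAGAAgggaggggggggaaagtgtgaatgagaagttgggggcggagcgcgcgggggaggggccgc
Pim1: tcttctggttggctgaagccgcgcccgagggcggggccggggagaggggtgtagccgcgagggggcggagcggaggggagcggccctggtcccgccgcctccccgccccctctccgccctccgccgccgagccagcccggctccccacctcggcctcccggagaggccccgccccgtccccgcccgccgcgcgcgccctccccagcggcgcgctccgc

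Both strands of the 250 bases before each RefSeq start were searched, for 9 of the 10 genes and 11 starts. The Jak1 match lay 101 bases before the start, and TGACGTCA occurred in 1 of the 11 windows and in 1.55% of all 32851 mouse promoters. The Socs3 match lay 154 bases before the start, and TTCNNNGAA occurred in 1 of the 11 windows and in 7.02% of all promoters. An ETS motif (CCGGAAGT, 2.88% of all promoters) and an AP-1 motif (TGANTCA, 6.75%) had no match in the 11 windows. A match describes the letters only.

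Libraries held between 6691177 and 14541145 counts, at which 3 counts, the most that a count of 0 leaves possible, correspond to 0.196 to 0.629 CPM, the unit of counts scaled to a library's size. Med24 ran from 34.0 to 49.2 CPM in the 9 knockout libraries and from 399 to 1775 CPM in the 9 rescued libraries, with no overlap. In rescued cells Med24 was not constant, with means of 548 ± 47 CPM at 0 h, 1635 ± 129 CPM at 2 h and 404 ± 4.0 CPM at 8 h. What part this change had in the 2 h comparisons was not tested. Spry4, a target and inhibitor of ERK signalling, was higher at 2 h than at 0 h in knockout (log2 fold change 4.44 ± 0.08) and in rescued cells (4.29 ± 0.08). At 0 h, before 4OHT, Spry4 was lower in knockout than in rescued cells (-1.07 ± 0.09) and so was the immediate early gene Egr1 (-1.44 ± 0.13). Spry4, Egr1 and Dusp6 were chosen to check ERK activation. Dusp6 did not share the 0 h difference. Its 0 h libraries overlapped, and its mean was 36.6 CPM without Med24 against 35.5 CPM with it. After 4OHT all 3 genes were lower in knockout cells. At 2 h knockout and rescued means were 817 and 1537 CPM for Spry4, 2610 and 3525 CPM for Egr1, and 120 and 152 CPM for Dusp6. At 8 h they were 775 and 1711 CPM, 987 and 1575 CPM, and 223 and 335 CPM. What part this had in the comparisons below was not tested. Summed embryonic stem cell markers (10 of 10 tested) did not overlap between knockout and rescued libraries at any time. At 0 h they were lower in knockout cells, at 2595 to 2646 against 2742 to 2755 CPM. They were higher in knockout cells at 2 h (2085 to 2296 against 1819 to 1851 CPM) and at 8 h (2391 to 2793 against 2182 to 2271 CPM). Primitive endoderm markers (7 of 9 tested) summed to 214 to 379 CPM in knockout and 115 to 281 CPM in rescued libraries and their summed level was higher in knockout cells at each time, without overlap. What part the differences in either set of markers had in the results was not tested. Of 9 fibroblast markers 3 were tested, Lum and S100a4 were at 0 in all 18 libraries, and the sums lay between 2.75 and 10.1 CPM. A group of 13 abundant genes, chosen as having a mean above 1000 CPM, a within-group correlation with Cdk8 above 0.9 and a within-group log2 SD above 0.3, took 34.2% of counts in knockout clone A at 2 h, 36.4% in knockout clone B at 8 h and 43.9% in knockout clone C at 8 h, against 17.7% to 24.0% in the other 15 libraries. For the 10 genes, differences that rest on these 3 libraries are given without them beside the gene or after the counts of calls. Values of all other genes are given with all 18 libraries only.

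In knockout cells 10 of the 10 genes passed the test between 2 h and 0 h (5 higher and 5 lower), where 66.6% of all tested genes passed (31.5% higher and 35.2% lower). In rescued cells 9 passed between 2 h and 0 h (4 higher and 5 lower), where 66.2% of all tested genes passed (32.4% higher and 33.8% lower). Their median log2 fold change was -0.07 in knockout and -0.25 in rescued cells, against -0.05 and -0.02 over all tested genes. Between 8 h and 0 h, 6 passed in knockout cells (2 higher and 4 lower), where 57.8% of all tested genes did (28.2% higher and 29.6% lower). In rescued cells 10 passed (3 higher and 7 lower), where 61.9% did (30.7% higher and 31.3% lower). The medians were 0.04 in knockout and -0.42 in rescued cells, against -0.02 and -0.01 over all tested genes. Between 8 h and 2 h, 9 passed in knockout cells (5 higher and 4 lower), where 57.1% did (29.4% higher and 27.7% lower). In rescued cells 7 passed (3 higher and 4 lower), where 61% did (30.7% higher and 30.2% lower). A call means an adjusted p under 0.05 from edgeR's quasi-likelihood test, with Benjamini-Hochberg adjustment over all 14128 genes. Most tested genes passed in these time comparisons, so the counts do not set these genes apart. The knockout and rescued time courses each compare with their own 0 h libraries.

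**Figure D1:**
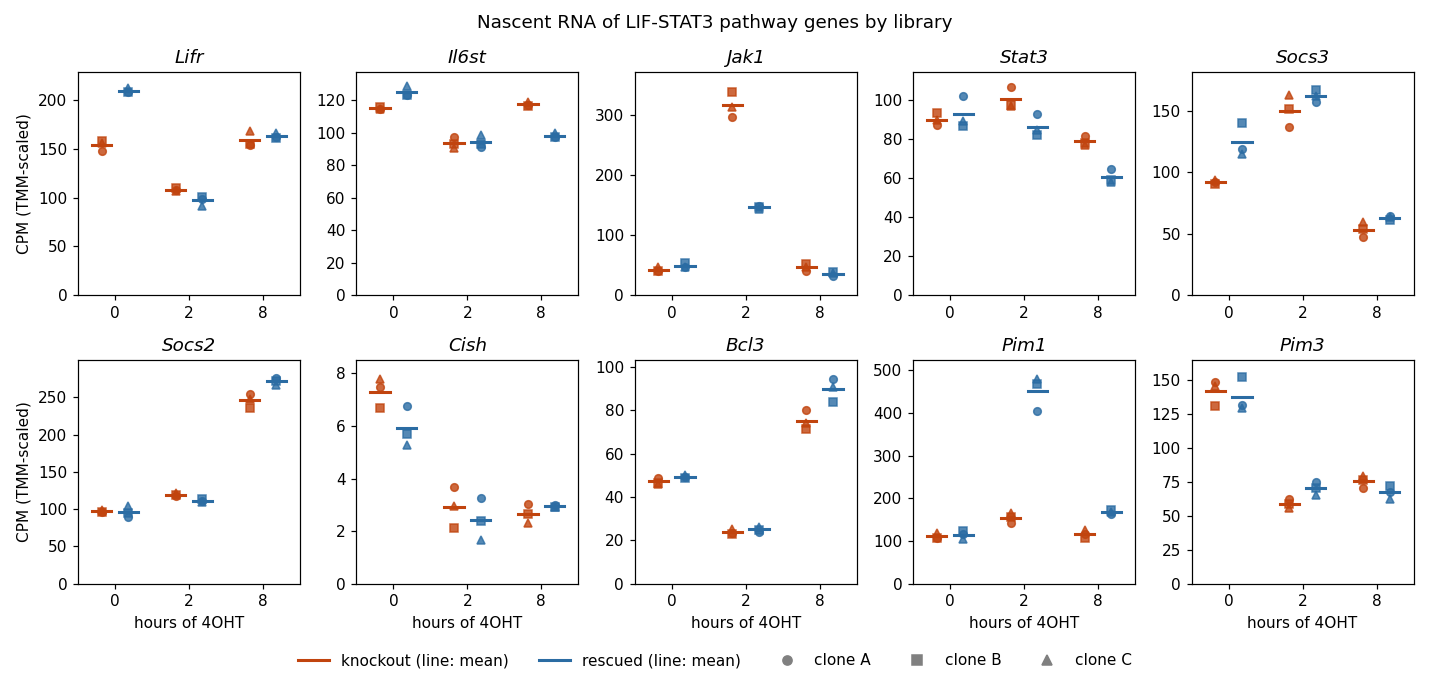
Newly made RNA of each of the 10 genes in CPM (linear scale from 0) at 0, 2 and 8 h of 4OHT, with knockout libraries left of rescued libraries at each time; each point is a library, its shape gives the clone and each line is the mean of 3. At 2 h the knockout libraries lie above the rescued ones for Jak1 (296 to 338 against 143 to 148 CPM) and below them for Pim1 (141 to 165 against 404 to 479.7 CPM).

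**Figure D2:**
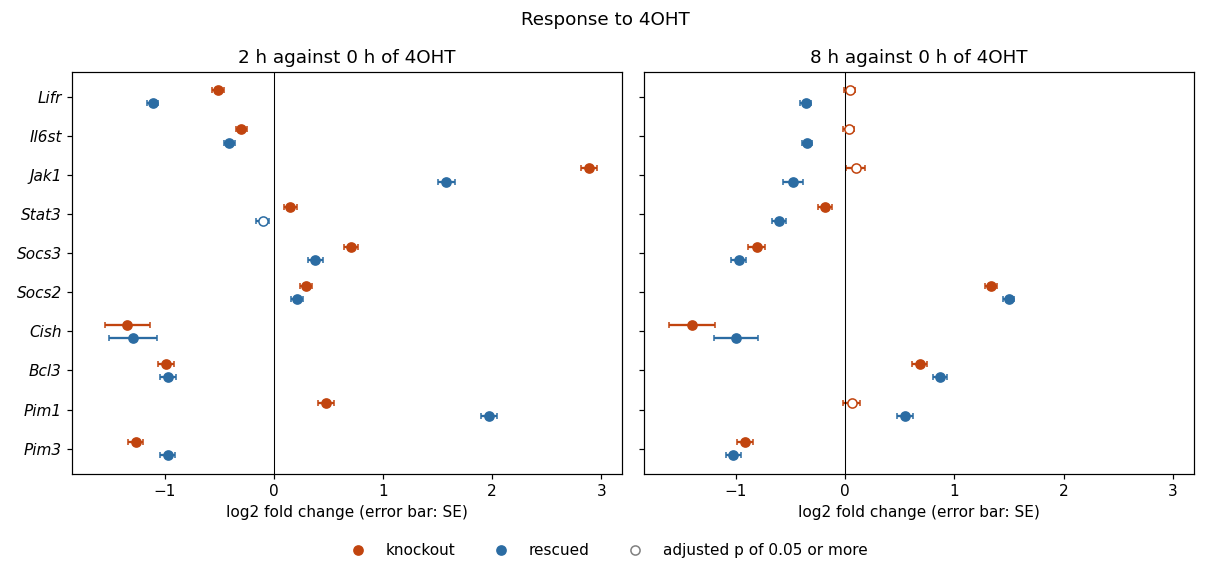
Log2 fold change of each gene at 2 h and at 8 h against 0 h in knockout and in rescued cells, with bars of 1 SE and filled symbols where the adjusted p was under 0.05. The 2 h value of Jak1 was 2.89 in knockout and 1.58 in rescued cells, and that of Pim1 was 0.48 in knockout and 1.97 in rescued cells.

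The receptor gene Lifr (GRCm38 chromosome 15, 7090614 to 7197489) fell at 2 h in both kinds of cells. It stood at 148, 158 and 156 CPM at 0 h in knockout clones A, B and C, at 107, 109.6 and 107 CPM at 2 h and at 154, 155 and 168 CPM at 8 h. In rescued clones A, B and C it stood at 208, 208 and 212 CPM at 0 h, at 98.6, 101 and 91.7 CPM at 2 h and at 162, 161 and 166 CPM at 8 h. The knockout libraries lay below the rescued ones at 0 h, with no overlap, and above them at 2 h, while at 8 h the ranges overlapped. The 0 h difference had a log2 fold change of -0.44 ± 0.05 (edgeR quasi-likelihood adjusted p 1.23e-07). The fall at 2 h was -0.51 ± 0.05 in knockout and -1.11 ± 0.05 in rescued cells, and the knockout response exceeded the rescued response by 0.60 ± 0.07 (adjusted p 4.41e-07 for the interaction). At 8 h rescued cells were still below their 0 h level (-0.36 ± 0.05), the knockout change was 0.04 ± 0.05 (adjusted p 0.493), and the responses differed by 0.41 ± 0.07 (adjusted p 1.3e-04). The higher Lifr at 2 h in knockout cells (0.16 ± 0.05, adjusted p 0.0343) lost its call without knockout clone A (0.16), B (0.14) or C (0.16) or rescued clone C (0.11) of the 2 h libraries.

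Il6st, which encodes gp130, the chain shared by receptors of the IL-6 family (chromosome 13, 112464070 to 112510086), also fell at 2 h. In knockout cells it averaged 115 ± 0.83 CPM at 0 h, 93.7 ± 3.6 CPM at 2 h and 117 ± 1.2 CPM at 8 h (SD, n = 3 each). In rescued cells it averaged 125 ± 3.4 CPM at 0 h, 94.2 ± 3.9 CPM at 2 h and 98.0 ± 1.4 CPM at 8 h. At 8 h all knockout libraries (117, 117 and 119 CPM) lay above all rescued libraries (97.0, 97.4 and 99.7 CPM). The change at 2 h was -0.30 ± 0.05 in knockout and -0.41 ± 0.05 in rescued cells, and the test of their difference (0.11 ± 0.07) gave an adjusted p of 0.348. At 8 h the knockout level exceeded the rescued level by 0.26 ± 0.05 (adjusted p 1.38e-04), and the 8 h responses differed by 0.38 ± 0.07 (adjusted p 2.29e-04). The 8 h difference between knockout and rescued cells was -0.0021 when libraries were scaled by their size alone, a scaling under which the median of all genes also moved by -0.25.

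Jak1 (chromosome 4, 101152367 to 101265282, minus strand) encodes a kinase bound to gp130 and had the largest 2 h change of the 10 genes in knockout cells. In knockout clones it stood at 40.7, 40.9 and 46.9 CPM at 0 h, at 296, 338 and 313 CPM at 2 h and at 40.0, 52.6 and 46.3 CPM at 8 h. In rescued clones it stood at 47.4, 52.9 and 46.3 CPM at 0 h, at 148, 147 and 143 CPM at 2 h and at 31.7, 38.5 and 36.3 CPM at 8 h. The groups overlapped at 0 h, and at 2 h and 8 h every knockout library lay above every rescued library. The rise at 2 h was 7.40-fold in knockout cells (log2 2.89 ± 0.08, adjusted p 2.74e-24) and 2.99-fold in rescued cells (1.58 ± 0.08, adjusted p 1.22e-17). The knockout response was larger by 1.31 ± 0.11 (adjusted p 3.26e-10), and the 2 h level was 2.16-fold higher in knockout than in rescued cells (1.11 ± 0.07, adjusted p 1.31e-14).

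By 8 h Jak1 had fallen below its 0 h level in rescued cells (-0.48 ± 0.09, adjusted p 2.23e-05), while in knockout cells the change was 0.09 ± 0.09 (adjusted p 0.384). The 8 h responses differed by 0.57 ± 0.13 (adjusted p 0.00175). The higher 8 h level of Jak1 in knockout cells (0.38 ± 0.09, adjusted p 0.00157) was 0.20 (adjusted p 0.168) without the 3 libraries rich in the abundant genes. Without knockout clone A at 8 h the knockout change at 8 h was 0.22 (adjusted p 0.0475). The 3′ end of Jak1 overlaps that of Raver2, on the opposite strand, by a few bases. At 2 h Raver2 averaged 42.8 ± 5.4 CPM in knockout cells, against 31.0 ± 1.4 CPM in rescued cells, and its 2 h responses differed by 0.55 ± 0.14 (adjusted p 0.00857), the same direction as for Jak1. The labels do not say whether reads were counted by strand, and how many reads the 2 genes share was not tested.

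The mRNA of Stat3, the transcription factor that LIF activates, came from a gene on chromosome 11 (100885098 to 100939540, minus strand) whose 3′ end overlaps that of Stat5a, whose group means lay between 1.61 and 3.78 CPM. In knockout clones Stat3 stood at 86.9, 93.1 and 89.6 CPM at 0 h, at 106, 97.2 and 96.9 CPM at 2 h and at 81.5, 78.1 and 76.9 CPM at 8 h. In rescued clones it stood at 102, 86.7 and 89.2 CPM at 0 h, at 92.5, 82.0 and 84.3 CPM at 2 h and at 64.5, 58.9 and 57.9 CPM at 8 h. Knockout and rescued libraries overlapped at 0 h and separated at 2 h and 8 h, with the knockout libraries higher. In rescued cells Stat3 fell by 8 h (-0.61 ± 0.07, adjusted p 1.55e-09), and the knockout response at 8 h was less negative by 0.42 ± 0.09 (adjusted p 0.00161). The 8 h level was 1.30-fold higher in knockout than in rescued cells (0.38 ± 0.07, adjusted p 4.89e-05). When libraries were scaled by size alone, both of these 8 h differences lost their call. The values were then 0.14 for the responses and 0.13 for the level in knockout against rescued cells.

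The smaller changes of Stat3 depended on scaling too, or on single libraries. The fall at 8 h in knockout cells (-0.18 ± 0.07, adjusted p 0.0174) lost its call without knockout clone B at 0 h (-0.16), without knockout clone B at 8 h (-0.17) and without the 3 libraries rich in the abundant genes (-0.13). The rise at 2 h in knockout cells (0.15 ± 0.06, adjusted p 0.0329) lost its call without knockout clone A (0.13) or C (0.15) at 0 h or clone A at 2 h (0.11) and without the 3 libraries rich in the abundant genes (0.13, adjusted p 0.0784), and was -0.13 when libraries were scaled by size alone. The higher 2 h level in knockout cells (0.21 ± 0.06, adjusted p 0.0131) lost its call without knockout clone A (0.17) or rescued clone B (0.17) or C (0.20) at 2 h. The 2 h responses of Stat3 differed by 0.26 ± 0.09 (adjusted p 0.055), and with the clone letter as a replicate block by 0.25 (adjusted p 0.0331).

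Socs3 (chromosome 11, 117966079 to 117970047, minus strand), whose product blocks gp130 signalling, was higher at 2 h and lower at 8 h than at 0 h in both kinds of cells. In knockout clones it stood at 92.5, 90.6 and 94.0 CPM at 0 h, at 137, 151 and 163 CPM at 2 h and at 47.3, 54.1 and 59.3 CPM at 8 h. In rescued clones it stood at 119, 140.1 and 115 CPM at 0 h, at 158, 167 and 162 CPM at 2 h and at 64.2, 61.4 and 63.9 CPM at 8 h. The knockout libraries lay below the rescued ones without overlap at 0 h and at 8 h, and the ranges overlapped at 2 h. The 0 h difference was -0.43 ± 0.07 (adjusted p 4.94e-05). The rise at 2 h was 0.71 ± 0.07 in knockout and 0.38 ± 0.07 in rescued cells, and the fall at 8 h was -0.81 ± 0.08 in knockout and -0.98 ± 0.07 in rescued cells. The 2 h responses differed by 0.33 ± 0.10 (adjusted p 0.0204), a call lost without rescued clone B at 0 h (0.24) or knockout clone C at 2 h (0.27). At 8 h the knockout level was lower by 0.26 on the log2 scale (-0.26 ± 0.08, adjusted p 0.0122), and -0.16 (adjusted p 0.159) without knockout clone A at 8 h. Without the 3 libraries rich in the abundant genes, which leaves clone A as the only knockout library at 8 h, the Socs3 difference was -0.42 (adjusted p 6.05e-04).

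Socs2 (chromosome 10, 95385362 to 95417180, minus strand), best known as an inhibitor of growth hormone signalling through STAT5, rose late. In knockout cells it averaged 97.4 ± 1.3 CPM at 0 h, 119 ± 2.0 CPM at 2 h and 246 ± 9.4 CPM at 8 h. In rescued cells it averaged 96.1 ± 7.5 CPM at 0 h, 111 ± 2.2 CPM at 2 h and 271 ± 4.4 CPM at 8 h (SD, n = 3 each). All 8 h libraries, from 236 to 276 CPM, lay above all earlier ones, of which the highest had 122 CPM. The 8 h rise was 2.52-fold in knockout (1.34 ± 0.05) and 2.82-fold in rescued cells (1.497 ± 0.053), and the test of their difference gave -0.16 ± 0.08 (adjusted p 0.146). Without rescued clone C at 0 h that difference was -0.23 (adjusted p 0.0402). The lower 8 h level of Socs2 in knockout cells (-0.14 ± 0.05, adjusted p 0.0273) lost its call without knockout clone B (-0.11), rescued clone A (-0.13) or rescued clone B (-0.14) at 8 h, and was -0.09 without the 3 libraries rich in the abundant genes.

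Cish (chromosome 9, 107296026 to 107302784), which encodes another SOCS-family inhibitor of STAT5 signalling, was measured from few reads, between 11 and 66 counts per library. It averaged 7.30 ± 0.58 CPM at 0 h, 2.92 ± 0.77 CPM at 2 h and 2.66 ± 0.36 CPM at 8 h in knockout cells. In rescued cells it averaged 5.92 ± 0.76 CPM at 0 h, 2.44 ± 0.80 CPM at 2 h and 2.94 ± 0.06 CPM at 8 h. Every library at 0 h lay above every library at 2 h and 8 h. The fall at 2 h was 2.53-fold in knockout (log2 -1.34 ± 0.20, adjusted p 9.71e-07) and 2.45-fold in rescued cells (-1.29 ± 0.22, adjusted p 7.2e-06). The responses differed by -0.05 ± 0.32 at 2 h and -0.40 ± 0.30 at 8 h (adjusted p 0.946 and 0.404), and at this depth differences of that size were not detectable.

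Bcl3 (chromosome 7, 19808462 to 19822770, minus strand), a STAT3 target that encodes a nuclear IκB-family protein, fell at 2 h and rose by 8 h. In knockout clones it stood at 48.9, 46.5 and 46.1 CPM at 0 h, at 23.2, 22.9 and 25.2 CPM at 2 h and at 80.2, 71.4 and 74.0 CPM at 8 h. In rescued clones it stood at 49.4, 48.7 and 49.95 CPM at 0 h, at 24.0, 25.0 and 26.4 CPM at 2 h and at 94.6, 83.6 and 90.7 CPM at 8 h. The 3 times did not overlap in either kind of cell, and knockout and rescued libraries overlapped at 0 h and 2 h but not at 8 h. The change at 2 h was -0.99 ± 0.08 in knockout and -0.97 ± 0.08 in rescued cells, with a difference of -0.01 ± 0.11 (adjusted p 0.958). At 8 h the change was 0.68 ± 0.07 in knockout and 0.87 ± 0.06 in rescued cells, with a difference of -0.18 ± 0.09 (adjusted p 0.172). The lower 8 h level of Bcl3 in knockout cells (-0.25 ± 0.06, adjusted p 0.00174) was -0.17 (adjusted p 0.122) without the 3 libraries rich in the abundant genes. Predicted antisense or pseudogene models overlap Bcl3, Cish and Pim1 on the opposite strand, and reads from them cannot be told apart if counting ignored strand.

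Pim1 (chromosome 17, 29490753 to 29496112), which encodes a serine/threonine kinase that promotes survival, had the largest difference between knockout and rescued cells among the 10 genes. In knockout clones it stood at 106, 108 and 119 CPM at 0 h, at 141, 156 and 165 CPM at 2 h and at 116, 106 and 125 CPM at 8 h. In rescued clones it stood at 117, 124 and 105 CPM at 0 h, at 404, 468 and 479.7 CPM at 2 h and at 164, 172 and 167 CPM at 8 h. The groups overlapped at 0 h, and at 2 h and 8 h every knockout library lay below every rescued library. The 2 h rise was 1.39-fold in knockout cells (0.48 ± 0.07, adjusted p 1.04e-06) and 3.92-fold in rescued cells (1.97 ± 0.07, adjusted p 5.18e-21). The knockout response was smaller by 1.49 on the log2 scale (-1.49 ± 0.10, adjusted p 5.14e-12), and the 2 h level was 2.92-fold lower in knockout than in rescued cells. At 8 h the change was 0.06 ± 0.08 in knockout cells (adjusted p 0.519) and 0.54 ± 0.07 in rescued cells (adjusted p 1e-07), and the responses differed by -0.49 ± 0.10 (adjusted p 0.00137). The knockout rise of Pim1 at 2 h was 0.20 (adjusted p 0.194) when libraries were scaled by size alone.

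Pim3 (chromosome 15, 88862186 to 88865726), which encodes a related kinase, moved the other way from Pim1. It averaged 142 ± 9.3 CPM at 0 h, 59.2 ± 3.3 CPM at 2 h and 75.5 ± 4.5 CPM at 8 h in knockout cells. In rescued cells it averaged 138 ± 12 CPM at 0 h, 70.3 ± 5.0 CPM at 2 h and 67.6 ± 4.9 CPM at 8 h. All libraries at 0 h (129 to 152 CPM) lay above all later ones (56.0 to 79.4 CPM). The fall at 2 h was -1.26 ± 0.07 in knockout and -0.97 ± 0.07 in rescued cells. The difference of these responses (-0.29 ± 0.10, adjusted p 0.0487) lost its call under 8 of the 12 omissions of a single library, with values of -0.24 to -0.29. The lower 2 h level of Pim3 in knockout cells (-0.25 ± 0.08, adjusted p 0.0148) lost its call without knockout clone C (-0.21) or rescued clone A (-0.20) at 2 h.

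Between knockout and rescued cells 2 of the 10 genes passed at 0 h (Lifr and Socs3, both lower), where 16.4% of all tested genes passed (6.81% higher and 9.64% lower). At 2 h 5 passed (Lifr, Jak1 and Stat3 higher, Pim1 and Pim3 lower), where 23.7% passed (10.8% higher and 12.9% lower). At 8 h 7 passed (Il6st, Jak1 and Stat3 higher, Socs3, Socs2, Bcl3 and Pim1 lower), where 31.6% passed (14.5% higher and 17.1% lower). At 0 h the median log2 fold change of the 10 genes came to -0.06 (0.0078 over all tested genes). The median was 0.05 at 2 h (6.8e-04 over all) and at 8 h it came to -0.07 (-0.0030 over all). The response itself differed for 5 genes at 2 h (Lifr, Jak1 and Socs3 higher, Pim1 and Pim3 lower), where 13.2% passed (6.6% higher and 6.6% lower). At 8 h it differed for 5 genes (Lifr, Il6st, Jak1 and Stat3 higher, Pim1 lower), where 16.8% passed (7.88% higher and 8.88% lower). At 2 h the call of Lifr, Stat3 or Pim3 could each be lost with 1 library left out, whereas Jak1 and Pim1 kept theirs in all 6 such fits. At 8 h the count was 4 without the 3 libraries rich in the abundant genes, a fit in which the lone knockout library at 8 h is assumed to vary like the other groups. These comparisons share libraries with the time courses, so their values are not separate evidence.

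Without those 3 libraries the differences between knockout and rescued cells at 2 h were 1.16 for Jak1, -1.48 for Pim1, 0.17 for Lifr, 0.18 for Stat3 and -0.28 for Pim3, and all 5 kept their call. The differences of the 2 h responses were 1.36 for Jak1, -1.43 for Pim1, 0.61 for Lifr, 0.39 for Socs3 and -0.32 for Pim3. They kept their call. The knockout changes that were called at 2 h against 0 h kept their call and direction, except the call of Stat3. At 8 h clone A was then the only knockout library, so effect sizes alone are given. Between knockout and rescued cells they were 0.26 for Il6st, 0.42 for Stat3, -0.42 for Socs3 and -0.53 for Pim1. For Jak1, Socs2 and Bcl3 they were 0.20, -0.09 and -0.17. The differences of the 8 h responses were 0.39 for Jak1, 0.37 for Lifr, 0.38 for Il6st, 0.47 for Stat3 and -0.47 for Pim1. The knockout changes that were called at 8 h against 0 h kept their direction.

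**Figure D3:**
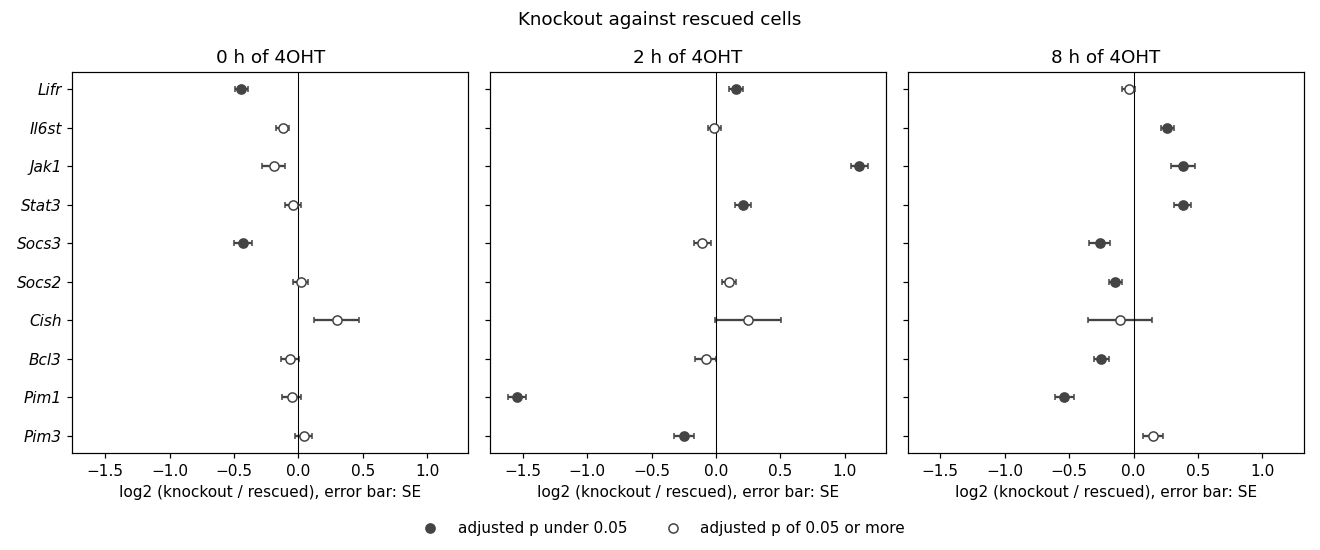
Log2 fold change of knockout over rescued cells for the 10 genes at 0, 2 and 8 h of 4OHT, with bars of 1 SE and filled symbols where the adjusted p was under 0.05. Lifr (-0.44) and Socs3 (-0.43) lie below 0 at 0 h, and Jak1 (1.11) and Pim1 (-1.55) lie farthest from 0 at 2 h.

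Genes around the pathway were read from lists of ligands, other receptors and kinases, other inhibitors and other LIF- or STAT3-responsive genes. Of 9 ligand genes of the LIF and IL-6 family 5 were tested. At 2 h against 0 h, 1 rose and 1 fell in knockout cells (31.5% and 35.2% of all tested genes) and 2 rose and 1 fell in rescued cells (32.4% and 33.8%). Lif itself fell at 2 h in knockout cells (6.19 against 21.9 CPM, log2 fold change -1.81 ± 0.13, adjusted p 1.21e-13). It also fell in rescued cells (8.05 against 20.7 CPM, -1.36 ± 0.12, adjusted p 3.83e-11), and the test of the difference gave -0.46 ± 0.18 (adjusted p 0.102). At 8 h Lif was lower in knockout than in rescued cells (8.72 against 11.4 CPM, -0.39 ± 0.13, adjusted p 0.0233). Between knockout and rescued cells 2 of the 5 were lower at 2 h (12.9% of all tested genes) and 3 were lower at 8 h (17.1%).

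All 13 other receptor, JAK and STAT genes were tested, and 4 rose and 5 fell at 2 h in knockout cells and 4 rose and 4 fell in rescued cells. These counts are near the shares of all tested genes that passed, 66.6% in knockout and 66.2% in rescued cells. Il6ra, the IL-6 receptor chain, reached 65.9 ± 1.7 CPM at 2 h in rescued cells, against 3.50 ± 0.13 CPM at 0 h (log2 4.23 ± 0.13, adjusted p 1.68e-22). At 2 h Il6ra was lower in knockout than in rescued cells, at 15.6 ± 4.0 against 65.9 ± 1.7 CPM (-2.04 ± 0.10, adjusted p 1.17e-16). Cntfr, the receptor chain for ciliary neurotrophic factor, was lower at 8 h in knockout than in rescued cells, at 3.91 ± 0.88 against 16.7 ± 1.5 CPM (-2.07 ± 0.17, adjusted p 4.88e-11). Jak2, a kinase of the same family as Jak1, was higher at 2 h in knockout than in rescued cells, at 89.4 ± 6.5 against 66.3 ± 3.1 CPM (0.44 ± 0.08, adjusted p 5.52e-05). Between knockout and rescued cells 1 of the 13 was lower at 0 h (Jak3), 1 was higher and 2 were lower at 2 h, and 2 were higher and 2 were lower at 8 h, where 16.4%, 23.7% and 31.6% of all tested genes passed.

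Of 15 other inhibitors of JAK-STAT signalling, 10 rose and 2 fell at 2 h in knockout cells and 8 rose and 1 fell in rescued cells, with median log2 fold changes of 0.29 and 0.19. Over all tested genes 31.5% rose and 35.2% fell in knockout cells (median -0.05), and 32.4% rose and 33.8% fell in rescued cells (median -0.02). Socs5, another SOCS-family gene, averaged 73.6 ± 9.6 CPM in knockout cells at 2 h, against 179 ± 6.7 CPM in rescued cells (-1.27 ± 0.07, adjusted p 1.5e-15). At 8 h Socs5 averaged 79.9 ± 2.0 CPM in knockout cells, against 162 ± 6.2 CPM in rescued cells (-1.02 ± 0.07). Pias3, whose product inhibits STAT3, was lower in knockout than in rescued cells at 2 h (21.4 against 33.2 CPM, -0.63 ± 0.11) and at 8 h (16.97 against 28.1 CPM, -0.77 ± 0.12). Between knockout and rescued cells 1 of the 15 was lower at 0 h (Ptpn1), 1 was higher and 3 were lower at 2 h, and 2 were higher and 4 were lower at 8 h, against the same shares of all tested genes (16.4%, 23.7% and 31.6%).

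Of 18 other LIF- or STAT3-responsive genes 17 were tested, and 9 rose and 6 fell at 2 h in knockout cells and 8 rose and 7 fell in rescued cells, where 66.6% and 66.2% of all tested genes passed. Between knockout and rescued cells 1 was higher and 4 were lower at 0 h, 4 were higher and 8 were lower at 2 h, and 4 were higher and 10 were lower at 8 h. Of all tested genes 6.81% were higher and 9.64% lower at 0 h, 10.8% higher and 12.9% lower at 2 h, and 14.5% higher and 17.1% lower at 8 h. The medians of the list were -0.07, -0.34 and -0.23, against 0.0078, 6.8e-04 and -0.0030 over all tested genes. Klf4, a naive pluripotency factor, was lower at 0 h in knockout than in rescued cells, at 99.1 ± 6.3 against 174 ± 25 CPM (-0.81 ± 0.08, adjusted p 1.5e-08). At 2 h Klf4 was higher in knockout than in rescued cells, at 123 ± 8.6 against 81.3 ± 8.0 CPM (0.60 ± 0.08, adjusted p 1.88e-06), and at 8 h the difference was 0.19 ± 0.13 (adjusted p 0.274). Junb, an AP-1 subunit, was lower at 2 h in knockout than in rescued cells, at 153 ± 3.6 against 383 ± 21 CPM (-1.32 ± 0.06, adjusted p 3.61e-17). Mcl1 (-0.61 ± 0.05), Klf5 (-0.59 ± 0.05) and Myc (-0.76 ± 0.09) were also lower in knockout cells at 2 h. At 8 h Bcl2l1 (-0.87 ± 0.06), Junb (-0.79 ± 0.06) and Gadd45g (-1.39 ± 0.18) were lower in knockout than in rescued cells. Tfcp2l1, a pluripotency factor downstream of STAT3, was lower at 0 h in knockout than in rescued cells (-0.16 ± 0.05, adjusted p 0.0396) and higher at 2 h (0.36 ± 0.06, adjusted p 2.71e-05). It was also higher at 8 h in knockout than in rescued cells, at 121 ± 2.5 against 86.1 ± 5.7 CPM (0.50 ± 0.06, adjusted p 1.28e-07).

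**Figure D4:**
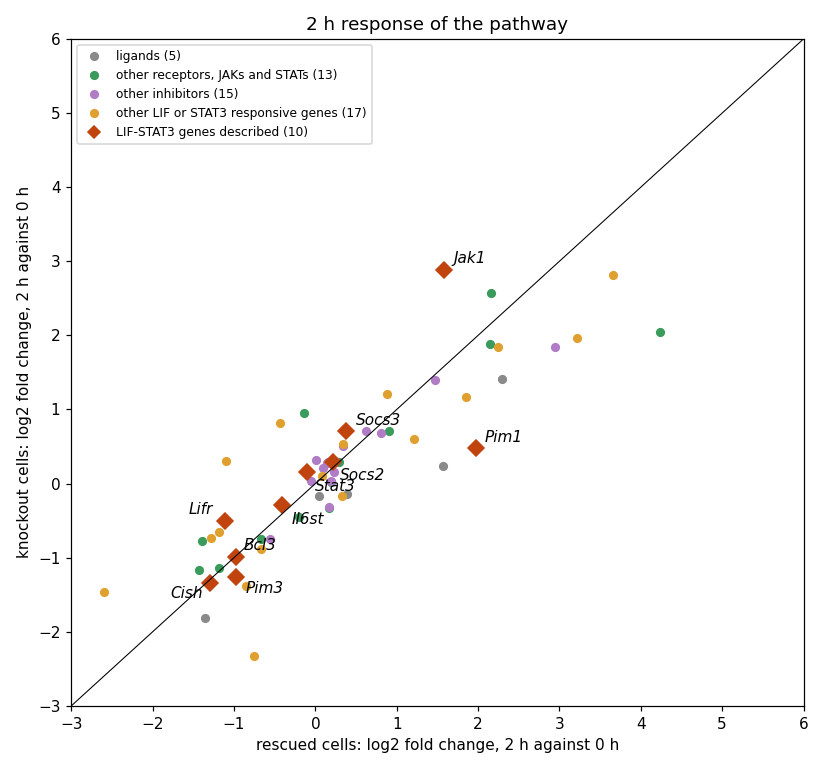
Log2 fold change at 2 h against 0 h in knockout cells (vertical axis) and in rescued cells (horizontal axis) for the 10 genes and the tested genes of the 4 pathway lists; the diagonal marks equal responses. Jak1 lies above the diagonal (2.89 in knockout and 1.58 in rescued cells), and Pim1 (0.48 in knockout and 1.97 in rescued cells) lies below it. The unlabelled point farthest to the right is Il6ra (2.04 in knockout and 4.23 in rescued cells).

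Patterns over the 18 libraries were compared by Pearson's r of log2(CPM + 0.5) among 10472 genes with a mean of at least 5 CPM. The libraries share their groups and clones, so the values are descriptions. Lifr was most like Oxr1 (r 0.974), Irak3 (0.955) and Mtmr7 (0.954). Stat3 was most like Robo2 (0.930), Meioc (0.923) and Dmc1 (0.921). For Socs3 the closest were Nova2 (0.983), Ccdc6 (0.981) and Nmt2 (0.976), and for Bcl3 they were Tcea3 (0.983), Slc29a2 (0.977) and Dyrk3 (0.977). Within the pathway Cish and Pim3 (0.896) and Lifr and Il6st (0.813) moved alike, and Socs3 and Bcl3 (-0.913) and Jak1 and Bcl3 (-0.894) moved in opposite directions. Within groups, the correlation of the 10 genes with Cdk8, by which the abundant genes were chosen, ran from -0.43 for Bcl3 to 0.55 for Pim3.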

How the data were processed

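Nascent RNA was counted in 18 libraries, 3 clones for each of 6 groups. The authors deposited whole-number read counts per gene symbol, not normalized, and these were used as deposited. STAR, featureCounts, DESeq and mm10 are named per the submitters' processing notes. Of versions, annotation, strand use and intron counting, none is given in the sources used here. With no spike-in named in the labels, a change is relative to the rest of the library.

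Counts were tested with edgeR 4.0.16 in R 4.3.3 after filterByExpr and TMM scaling. A single quasi-likelihood model with 6 group means gave 11 comparisons, including the difference of the knockout and rescued responses at 2 h and at 8 h (interactions). Benjamini-Hochberg adjustment ran over all 14128 tested genes, at 0.05. CPM is the TMM-scaled value, means are given ± SD and log2 fold changes ± SE. The procedure was tested on simulated data. Alternatives were DESeq2 1.42.0, RLE scaling, library size alone, no filter, only the groups compared, each library left out, the 3 libraries rich in abundant genes left out, and the clone letter as a replicate block.

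The 10 genes, the pathway and marker lists and the tests were chosen with earlier results of these data known. Of each pathway list, up to 4 called genes with the smallest p and at least 5 CPM on average could be named per comparison, and the text gives a selection. A gene so named may also be given at other times, as Klf4 and Tfcp2l1 are at 2 h. Likeness names the 3 genes with the highest r, passing over predicted gene models. The clone letters A, B and C, per the labels, were taken as the same clones in every group. After group means were removed, libraries of the same letter correlated by 0.0178 on average (range -0.129 to 0.0957) and those of other letters by -0.0089. For 14 of 18 libraries the mean correlation with libraries of other groups was highest for the library's own letter. No pair of libraries of a group agreed within sampling noise (chi-square per degree of freedom at least 1.52). This ratio was highest in knockout cells after 4OHT, at 103 for clones A and C at 8 h and 46.7 for clones A and B at 2 h. In the other groups the highest was 5.30, for rescued clones A and B at 0 h. The p-values measure the spread between libraries within groups, estimated over the 6 groups together without a clone term. They do not measure how an effect varies between clones. Floors cover counting error only. Positions come from GENCODE M21 (GRCm38), and promoters from RefSeq, GRCm38.p6, matched for 9 of the 10 genes (not Socs2).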

Additional observations from a re-analysis of the deposited data

Results flagged for a closer look

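The response to 4OHT differed between knockout and rescued cells, by a test of the difference itself (the interaction in edgeR's quasi-likelihood model, adjusted over all tested genes), for 5 of the 10 genes at 2 h, where 13.2% of all tested genes passed, and for 5 at 8 h, where 16.8% passed. Values are the log2 response of knockout cells less the response of rescued cells, with 3 libraries per group. At 2 h the difference was 1.31 for Jak1, which rose in both, and -1.49 for Pim1, which rose in both. It was 0.60 for Lifr, which fell in both, 0.33 for Socs3, which rose in both, and -0.29 for Pim3, which fell in both. For Lifr and Socs3 these values include a lower 0 h level in knockout cells. Knockout and rescued means of Lifr were 154 and 209 CPM at 0 h and 108 and 97.1 CPM at 2 h. Those of Socs3 were 92.4 and 125 CPM at 0 h and 150 and 162 CPM at 2 h, where the libraries overlapped. Socs3 lost its call without rescued clone B at 0 h (0.24) or knockout clone C at 2 h (0.27). Pim3 lost its call under RLE scaling (-0.27), under DESeq2 (-0.27) and under 8 of the 12 omissions of a single library (-0.24 to -0.29).

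At 8 h the difference was 0.57 for Jak1, 0.41 for Lifr, 0.38 for Il6st and 0.42 for Stat3, and -0.49 for Pim1. At that time Jak1, Lifr, Il6st and Stat3 were below their 0 h level in rescued cells and Pim1 was above it. In knockout cells the 8 h change missed the threshold for Jak1 (0.09), Lifr (0.04), Il6st (0.03) and Pim1 (0.06), and Stat3 was lower (-0.18).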

How the results depend on the processing

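Jak1 and Pim1 kept the direction and call of their 2 h differences, between knockout and rescued cells and between the 2 h responses, under every alternative tried. With libraries scaled by size alone the number of the 10 genes called was 1 at 0 h (2 with TMM) and 2 at 2 h (5) between knockout and rescued cells, and 2 at 2 h (5) and 1 at 8 h (5) for the difference of responses. Between knockout and rescued cells at 8 h, Il6st, Jak1 (0.11) and Stat3 (0.13) lost their call as higher under that scaling. Lifr gained a call there as lower in knockout cells (-0.30). That scaling moved the median of all genes by -0.36 (knockout, 8 h against 0 h), -0.28 (knockout, 2 h), -0.16 (rescued, 2 h), -0.25 (knockout against rescued at 8 h), -0.13 and -0.29 (differences of responses at 2 h and 8 h), and by less than 0.1 elsewhere. It also reversed 5 values that were called under TMM or under size alone: Lifr (-0.33), Il6st (-0.34) and Pim1 (-0.31) in knockout cells at 8 h against 0 h, Stat3 (-0.13) in knockout cells at 2 h, and Il6st (-0.0021) in knockout against rescued cells at 8 h. Another 7 values changed sign without a call under either scaling. Without the 3 libraries rich in abundant genes, the 8 h differences between knockout and rescued cells rest on knockout clone A alone, and their values are given above. Leaving out 1 library gave 3 to 4 calls between knockout and rescued cells at 2 h (5 with all), 6 to 7 at 8 h, and 3 to 6 (5) and 5 to 6 (5) for the differences of responses at 2 h and 8 h. With the clone letter as a replicate block, 6 genes passed for the 2 h difference of responses, the addition being Stat3 (0.25, adjusted p 0.0331), and the block changed no other call. Stat3 also gained that call under RLE scaling (0.27, adjusted p 0.0366), with only the groups compared (0.27, adjusted p 0.0336) and under 4 of the 12 omissions of a single library. Pim3 lost its 2 h difference of responses under RLE scaling (-0.27) and DESeq2 (-0.27), Lifr its 2 h difference between knockout and rescued cells with no filter (0.15), Stat3 its 8 h fall in knockout cells under DESeq2 (-0.17), and Socs2 its 8 h difference with only the groups compared (-0.14). The cause was not tested. Depth limits Cish, at 11 to 66 counts per library.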
